A study of Mus musculus with 15 samples.

Results

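Fat cells, or adipocytes, express a small set of genes that testis cells use little or in other ways, and 10 of these were followed across 15 RNA sequencing libraries of whole mouse testes. They were Adipoq, Cfd, Lep, Retn, Fabp4, Cidec, Plin1, Plin4, Lpl and Pparg, chosen as known adipocyte genes and found by symbol among the 36118 gene identifiers of the deposited table. All 10 were present, and all 10 passed the filter on low values (an average of 10 or more across libraries) that left 17896 genes for testing. Every library was labelled as testes of C57/BL6 genotype, and the 5 groups of 3 libraries were MTX, HMS-I1, AA, TSA and Control. The labels gave no meaning for these abbreviations, no dose, no duration, no age and no statement on whether fat beside the testis was trimmed. The 3 HMS-I1 titles named replicates of HMS-I1, whereas their treatment field read HMS-I1, HMS-I2 and HMS-I3, so each HMS-I1 value rests on the titles. The replicates were not said to be separate animals, so p-values reflect the spread among these libraries alone, and that spread may be technical.

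White adipocytes store fat as a single large droplet and release hormones into the blood. Pparg, a nuclear receptor that pairs with a retinoid X receptor, drives their formation together with factors of the C/EBP family and switches on genes for fat uptake, droplet coating and secretion. In mice the epididymal fat pad lies against the testis and epididymis, and it is a white depot often sampled for fat studies. Inside the testis, Lpl and other fat-handling genes are also used by cells that are not adipocytes.

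The promoters of 5 of these genes are shown because genes that are used together in fat cells are often described by the motifs they share near their start. Each runs from 250 bases before to 50 bases after the gene start (RefSeq, GRCm38.p6, printed on the gene's own strand), and capitals mark matches to the C/EBP motif TTGCNNAA on either strand.
Lep (chr6:29059971-29060270, + strand): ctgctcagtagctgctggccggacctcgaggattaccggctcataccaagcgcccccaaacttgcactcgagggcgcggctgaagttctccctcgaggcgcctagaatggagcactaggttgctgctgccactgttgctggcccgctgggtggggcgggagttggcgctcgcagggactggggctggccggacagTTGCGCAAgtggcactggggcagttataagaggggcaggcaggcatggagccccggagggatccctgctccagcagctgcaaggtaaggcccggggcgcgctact
Plin1 (chr7:79732727-79733026, - strand): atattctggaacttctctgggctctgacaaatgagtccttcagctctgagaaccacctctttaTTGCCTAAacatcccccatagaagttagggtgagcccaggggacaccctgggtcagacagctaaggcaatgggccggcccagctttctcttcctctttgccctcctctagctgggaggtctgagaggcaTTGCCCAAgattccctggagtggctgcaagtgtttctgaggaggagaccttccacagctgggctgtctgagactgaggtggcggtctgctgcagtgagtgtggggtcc
Cidec (chr6:113434715-113435014, - strand): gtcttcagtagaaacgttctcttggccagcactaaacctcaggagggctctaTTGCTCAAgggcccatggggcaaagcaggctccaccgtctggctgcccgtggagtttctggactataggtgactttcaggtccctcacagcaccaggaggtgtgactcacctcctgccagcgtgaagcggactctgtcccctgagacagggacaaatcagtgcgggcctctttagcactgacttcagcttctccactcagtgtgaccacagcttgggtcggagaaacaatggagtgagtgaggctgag
Adipoq (chr16:23146286-23146585, + strand): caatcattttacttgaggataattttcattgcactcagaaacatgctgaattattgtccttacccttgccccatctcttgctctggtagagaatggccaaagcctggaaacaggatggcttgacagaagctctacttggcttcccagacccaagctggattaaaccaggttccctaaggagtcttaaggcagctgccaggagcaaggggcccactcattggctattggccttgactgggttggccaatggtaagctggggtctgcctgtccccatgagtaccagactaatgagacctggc
Cfd (chr10:79890603-79890902, + strand): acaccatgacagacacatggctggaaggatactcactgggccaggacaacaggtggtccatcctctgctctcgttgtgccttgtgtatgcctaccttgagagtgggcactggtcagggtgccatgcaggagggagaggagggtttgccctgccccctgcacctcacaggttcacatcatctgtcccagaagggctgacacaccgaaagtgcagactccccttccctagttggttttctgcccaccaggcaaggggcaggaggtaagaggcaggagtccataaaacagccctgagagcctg
RefSeq gave 11 promoters for 8 of the 10 genes, and none for Fabp4 or Lpl. The C/EBP motif lay in 4 of the 11, namely those of Lep and Plin1, the second of 2 for Cidec and the third of 3 for Pparg, against 10.8% of 32851 mouse promoters of the same length. In Lep it started 55 bases before the gene start, and there its letters read the same on both strands. The receptor half-site AGGTCA was found in 2 promoters, both of Pparg, against 16.3% of all promoters, and the paired site DR1, which is AGGTCA, any 1 base and AGGTCA again, in 0 of 11, against 0.0396%. TATAAA was found in 1 promoter, also of Pparg, against 13.6%. These matches describe the letters in these windows.

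The libraries were not alike in depth or make-up. The commonest low value in each library, taken as the worth of about 1 read, put 6 libraries at 11.6 M to 15.5 M reads and the other 9 at 31.0 M to 68.9 M. The same 6, which were replicate 1 of each treatment with Control 1 and Control 2, had a mean log2 level of 7.79 to 8.82 over 60 histone genes, against 2.95 to 3.86 in the other 9. They are called histone-rich and histone-poor libraries here. Mitochondrial transcripts took 1.08% to 1.40% of the total in histone-rich and 3.54% to 13.7% in histone-poor libraries. Germ cell genes, led by Tnp1, Prm2 and Prm1, were abundant in each library, at 18510 to 25645 parts-per-million (ppm) of the summed normalised counts in the histone-rich and 5161 to 11367 in the histone-poor ones.

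Among the secreted proteins, adiponectin and adipsin behaved differently. Adipoq encodes adiponectin, an abundant hormone of fat cells, and was listed at 541, 227 and 244 normalised counts in the MTX libraries, 646, 149.7 and 199 in HMS-I1, 466, 245 and 173 in AA, 596, 18.7 and 48.1 in TSA, and 1013, 626 and 184 in Control. The 6 histone-rich libraries held its 6 highest values, 466 to 1013, with no overlap with the 9 histone-poor libraries at 18.7 to 245. How many of all genes split the library sets in this way was not counted. Cfd encodes adipsin, a complement protease made largely by fat cells, and was listed at 100.3, 202 and 0 normalised counts in the MTX libraries, 7.97, 24.9 and 118 in HMS-I1, 157, 187 and 159 in AA, 0, 7.05 and 0 in TSA, and 1178, 94.8 and 0 in Control. It was listed at 0 in 4 libraries of both sets and was highest in Control 1, and each treatment's range overlapped that of Control. In whole testis RNA, the number of fat cells, the RNA per fat cell and RNA from other cells cannot be told apart. The source of the RNA of either gene and the part of the library set were not tested.

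The other hormones had lower levels per kilobase of transcript. Lep, for leptin, the signal of fat stores to the brain, had 16.6, 11.2 and 3.27 normalised counts in the MTX libraries, 4.63, 3.51 and 7.52 in HMS-I1, 11.4, 13.3 and 17.2 in AA, 10.4, 3.86 and 2.33 in TSA, and 121, 3.95 and 4.19 in Control. Control 1 stood alone, and the other 14 libraries lay between 2.33 and 17.2. Retn encodes resistin, a fat hormone in mice, and was listed at 104, 36.8 and 16.7 normalised counts in the MTX libraries, 65.3, 15.3 and 42.6 in HMS-I1, 71.6, 58.9 and 50.2 in AA, 46.5, 15.3 and 9.21 in TSA, and 349, 61.5 and 9.85 in Control. Control 1 was again highest, followed by MTX 1, and 5 of its 6 highest libraries were histone-rich.

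Of the genes for fat handling, Fabp4 varied most among those detected in every library. Fabp4 is the fatty acid carrier of the adipocyte cytoplasm and had 165, 571 and 19.99 normalised counts in the MTX libraries, 12.03, 84.3 and 169 in HMS-I1, 159.6, 515 and 528 in AA, 22.6, 25.1 and 12.6 in TSA, and 1895, 173 and 26.9 in Control. The 3 TSA libraries lay below all 3 Control libraries, though Control 3 was close to them, and AA 2, AA 3 and MTX 2 followed Control 1. Cidec, which lets droplets fuse into the single large droplet of white fat, was listed at 23.1, 34.02 and 2.18 normalised counts in the MTX libraries, 0, 7.67 and 26.96 in HMS-I1, 18.9, 41.3 and 31.6 in AA, 8.03, 8.61 and 6.95 in TSA, and 176, 25.9 and 0 in Control. It was listed at 0 in HMS-I1 1 and Control 3 and lay between 6.95 and 8.61 in TSA, inside the Control range.

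Plin1 encodes the coat protein that guards the adipocyte droplet and had 96.6, 97.4 and 112 normalised counts in the MTX libraries, 82.1, 143 and 99.2 in HMS-I1, 75.8, 128 and 175 in AA, 46.2, 120.1 and 175 in TSA, and 210.0, 105 and 123 in Control. It was the flattest of the 10, with Control 1 at 1.87 times its median library. Plin4, a droplet coat protein of white fat and muscle, was listed at 115, 62.5 and 41.6 normalised counts in the MTX libraries, 80.8, 54.2 and 62.99 in HMS-I1, 203, 97.5 and 89.5 in AA, 95.96, 55.01 and 63.04 in TSA, and 582, 125 and 30.2 in Control. Control 1 and AA 1 were highest, and Control 3 was lowest. Plin4 overlaps Hdgfl2 on the opposite strand, which had 2652 to 4037 normalised counts, and no source used here says whether counting used strand, so its values are uncertain.

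Lpl, the lipase that frees fatty acids from blood lipoproteins, had 278, 899.7 and 209 normalised counts in the MTX libraries, 141, 335 and 333 in HMS-I1, 377, 869 and 936 in AA, 87.3, 437 and 238 in TSA, and 1584, 181 and 329 in Control. Control 1, AA 3, MTX 2 and AA 2 were the 4 highest. Pparg was listed at 228, 66.9 and 55.8 normalised counts in the MTX libraries, 74.03, 70.2 and 64.7 in HMS-I1, 83.7, 65.6 and 85.9 in AA, 44.5, 67.98 and 60.4 in TSA, and 76.7, 46.9 and 60.6 in Control. MTX 1 was highest and the other 14 libraries lay between 44.5 and 85.9, with Control 1 at 76.7. Pparg overlaps the antisense gene Gm44079, so its reads are uncertain in the same way. Per kilobase of transcript, the median library held 189 normalised counts of Adipoq, 178 of Fabp4, 103 of Cfd, 80.9 of Lpl, 40.8 of Retn, 39.9 of Plin1, 31.5 of Pparg, 14.04 of Plin4, 10.99 of Cidec and 2.31 of Lep.

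**Figure D1:**
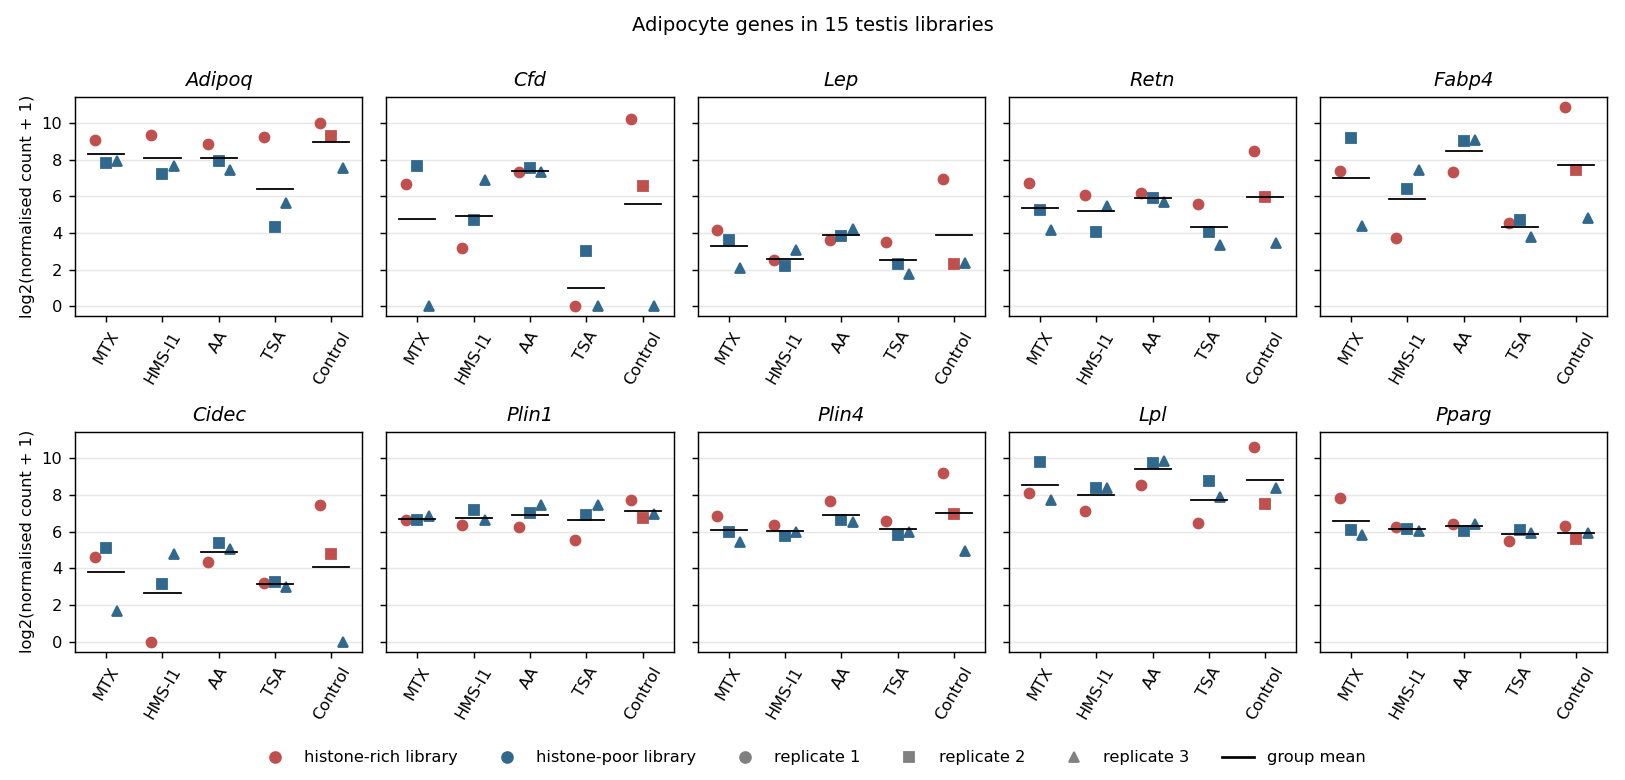
Each panel plots 1 adipocyte gene as log2(normalised count + 1) in the 3 libraries of MTX, HMS-I1, AA, TSA and Control, with the group mean as a bar, colour for the library set and shape for the replicate. Control 1 is the highest point for 9 of the 10 genes, and the 6 histone-rich libraries are the 6 highest for Adipoq.

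Control 1 thus held the highest value of 9 of the 10 genes, and the exception was Pparg, where it ranked 4. The 10 genes together made up 233 ppm of the total in Control 1 and 22.4 (TSA 3) to 78.0 (AA 2) ppm in the other 14 libraries. Without Adipoq, which split by library set, the sum was 200 ppm in Control 1 and 11.4 (TSA 1) to 69.7 (AA 3) ppm in the other 14. Control 3, at 22.9 ppm, had the lowest mean log2 level of all libraries, with 2 of the 10 genes listed at 0. By that level the highest and the lowest library were both controls. By summed share the lowest was TSA 3, or TSA 1 without Adipoq. The mean log2 level of the 10 genes was 6.04 ± 1.25 in MTX, 5.61 ± 0.58 in HMS-I1, 6.82 ± 0.15 in AA, 4.80 ± 0.29 in TSA and 6.51 ± 2.18 in Control (SD, n = 3 each). The AA and TSA libraries were each close among themselves, and the spread of Control covered all 4 treatments' means. Ordered by group mean of the normalised counts, Control was first for 8 genes, AA for Lpl and MTX for Pparg. In that order, 40 of 40 gaps between neighbouring groups were smaller than the larger SD of the pair.

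The genes differed in which libraries held their highest values. Fabp4 and Cidec shared 6 of their 6 highest libraries, and Fabp4 and Cfd shared 5. Fabp4 and Adipoq shared 2, which were Control 1 and Control 2. In the 8 libraries with at least 100 normalised counts of Fabp4, the ratio of Cfd to Fabp4 ran from 0.301 to 0.981 and that of Cidec to Fabp4 from 0.0595 to 0.160. Those are 3.26-fold and 2.69-fold ranges, and that of Lpl to Fabp4 was 2.83-fold, while Fabp4 itself ran from 160 to 1895. The ratio to Fabp4 ranged 5.13-fold for Lep, 5.49-fold for Plin1, 9.77-fold for Retn, 11.03-fold for Adipoq, 11.6-fold for Plin4 and 34.2-fold for Pparg, so Adipoq was not alone in a wide range. Over all 15 libraries, which include those with Fabp4 near its lowest values, the ratio ran from 0 to 0.981 for Cfd, from 0 to 0.552 for Cidec and from 0.329 (AA 3) to 53.7 (HMS-I1 1) for Adipoq. The Cidec ratio was 0.356, 0.343 and 0.552 in TSA 1, TSA 2 and TSA 3, and 0.109 in MTX 3, where Fabp4 was also low. Adipoq took 2.46% of the 10 genes' summed value in TSA 2 and 62.2% in TSA 1. Within the library sets, the log2 level of Adipoq was correlated with that of each of the other 9 genes. Pearson's r lay between -0.21 and 0.77 in the 6 histone-rich and between -0.29 and 0.54 in the 9 histone-poor libraries. None of these 18 relations passed in a two-sided permutation test, with adjusted p between 0.612 and 0.841 for r and between 0.872 and 1.00 for Spearman's rho.

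**Figure D2:**
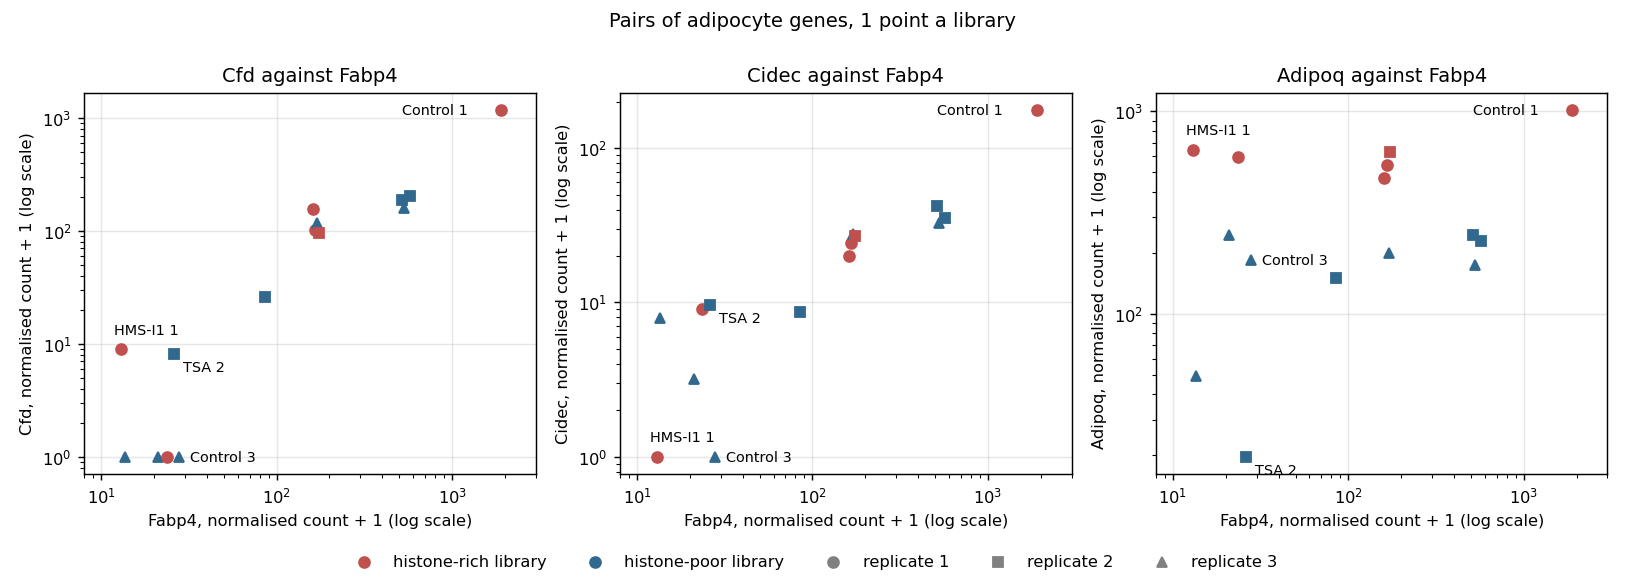
The 3 panels plot Cfd, Cidec and Adipoq against Fabp4 as normalised count + 1 on log axes, with 1 point a library, colour for the library set and shape for the replicate. Cfd lies along a band with Fabp4 apart from the libraries listed at 0. So does Cidec, except that the 3 TSA libraries lie above its band, with ratios to Fabp4 of 0.356, 0.343 and 0.552. For Adipoq the 6 histone-rich libraries lie above all others whatever their Fabp4, as HMS-I1 1 shows with 12.0 of Fabp4 and 646 of Adipoq.

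Measured against the mean standardised level of the 10 genes over the 15 libraries, Pearson's r was 0.92 for Fabp4, 0.91 for Lep, 0.90 for Cfd, 0.86 for Retn, 0.84 for Cidec, 0.83 for Plin4 and 0.73 for Lpl. It was 0.49 for Adipoq, 0.46 for Pparg and 0.37 for Plin1, and 0.038 for Plin1 without Control 1. Each gene is part of that mean, and the points share library depth and set, so these values are descriptions.

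For TSA against Control, the fold changes of all 10 genes were below 0 and none passed the test. Their median log2 fold change was -1.24, beside 0.0061 over all genes tested, of which 50.5% were above 0. The log2 fold change was -2.56 for Adipoq, -4.59 for Cfd, -0.93 for Cidec, -1.12 for Lpl and -0.083 for Pparg. Their SE was the same in each comparison, at 1.04 for Adipoq, 2.29 for Cfd, 1.61 for Cidec, 0.82 for Lpl and 0.45 for Pparg. Fabp4 had a log2 fold change of -3.37 with an SE of 1.44 and an unadjusted p of 0.0364 in limma. Adjusted p-values from limma over all genes ran from 0.855 (Adipoq) to 0.971 (Pparg), and 0 of 17896 genes passed (0%), with 1027 at an unadjusted p under 0.05. Fabp4 was the 1 gene of 10 with all 3 TSA libraries below all 3 controls, as were 2.18% of all genes, and 0 of 10 lay above, against 2.36%. In the same comparison, all 6 germ cell genes had fold changes below 0 and all 6 Leydig and all 6 Sertoli cell genes above 0, and their part in the result was not tested. Without TSA 1, the TSA libraries left were histone-poor, while 2 of the 3 controls were histone-rich. Library set and treatment thus cannot be fully told apart there. In that fit 992 genes (5.54%) passed in limma, 991 of them lower in TSA. Adipoq, which split by library set, was the 1 of the 10 genes among them, at -3.98 (limma adjusted p = 0.0118). Within each library set, Adipoq in TSA lay below every control, with log2 differences of -0.42 (histone-rich) and -2.57 (histone-poor). Fabp4 did so too, at -4.61 and -0.57, whereas Plin4 and Cidec in TSA lay below in the first set and above in the second. The share of all genes doing so was not computed, and the part of the library set was not tested.

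For MTX against Control, 1 of the 10 genes (Pparg) had a fold change above 0 and 9 below, with a median log2 fold change of -0.59 beside -0.015 over all genes. The log2 fold change was -0.65 for Adipoq, -0.82 for Cfd, -0.27 for Cidec, -0.29 for Lpl and 0.65 for Pparg, each with a limma adjusted p of 1.00. In limma 0 of 17896 genes passed (0%), and 98 had an unadjusted p under 0.05. The libraries overlapped for all 10 genes, against 1.32% of all genes above and 1.15% below without overlap. Pparg rests on MTX 1, at 228 beside 66.9 and 55.8 in the other MTX libraries.

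HMS-I1 against Control gave the same split of 1 (Pparg) above and 9 below 0, with a median of -0.86 beside -0.016 over all genes. The log2 fold change was -0.86 for Adipoq, -0.68 for Cfd, -1.43 for Cidec, -0.86 for Lpl and 0.20 for Pparg, each with a limma adjusted p of 1.00. Again 0 of 17896 genes passed (0%), with 73 at an unadjusted p under 0.05, and 0 of the 10 genes were free of overlap, against 1.35% above and 1.35% below.

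In AA against Control, 6 of the 10 genes were above and 4 below 0, with a median of 0.19 beside -0.024 over all genes. The log2 fold change was -0.85 for Adipoq, 1.80 for Cfd, 0.84 for Cidec, 0.56 for Lpl and 0.37 for Pparg, each with a limma adjusted p of 1.00. Of 17896 genes 0 passed (0%), with 143 at an unadjusted p under 0.05, and 0 of the 10 genes were free of overlap, against 2.81% above and 2.23% below. Genes of fibroblasts, mesothelium, endothelium, smooth muscle and Sertoli cells were all above 0 in AA, beside 47.3% of all genes. So were 5 of 6 Leydig cell, 4 of 5 macrophage and 4 of 5 blood genes. Below 0 were 5 of 6 germ cell, 4 of 6 brown fat, all 3 tested skeletal muscle and the 1 tested epididymis gene. The part of these cell types was not tested. The F-test over the 5 groups passed 0 genes (0%), and 230 had an unadjusted p under 0.05, and its adjusted p was 1.00 for each of the 10. The 4 comparisons share their controls.

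Many of these directions turned when Control 1 was left out. Without it, the median log2 fold change of the 10 genes was 0.74 in MTX, 0.16 in HMS-I1, 1.34 in AA and -0.21 in TSA. The sign turned for 7 genes in MTX, 6 in HMS-I1, 3 in AA and 4 in TSA. Adipoq stayed below 0 in all 4 comparisons without Control 1. Without Control 1, limma called 1 gene in each comparison, Rdh16f1, which is not among the 10 and was named after its values were seen. Control 1 was the highest control for each of the 10 genes, so leaving it out could only raise their fold changes. Leaving out Control 3, the library with the lowest mean log2 level, lowered all 4 medians. They were then -1.60 in MTX, -2.03 in HMS-I1, -0.87 in AA and -2.50 in TSA. Leaving out MTX 3 turned the MTX median to 0.078, and leaving out Control 2 turned the AA median to -0.062.

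**Figure D3:**
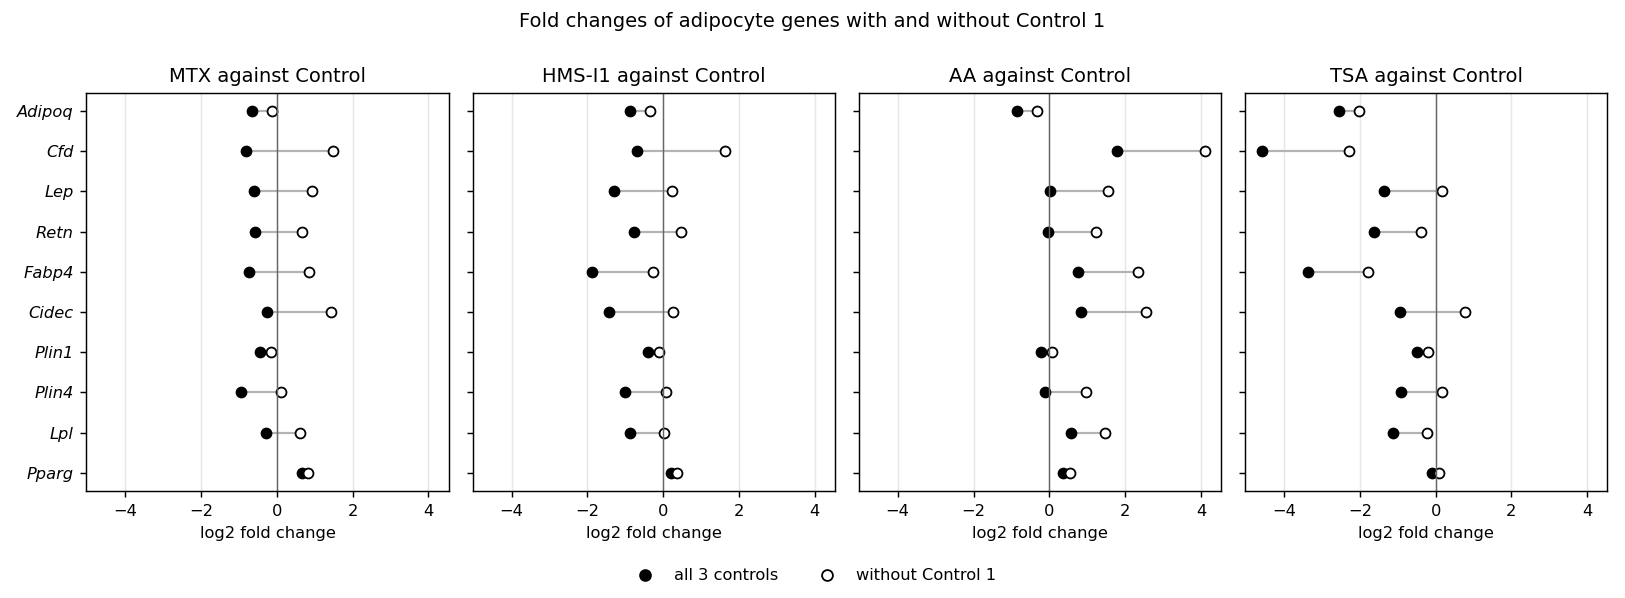
Each panel gives the log2 fold change of the 10 adipocyte genes in 1 treatment against Control, with filled points for all 3 controls and open points without Control 1. Control 1 was the highest control for each of these genes, so open points lie to the right of filled points throughout. The median moves across 0 in MTX (0.74 without Control 1, -0.59 with it) and HMS-I1 (0.16 and -0.86).

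The direction also differed between the library sets. Among the 6 histone-rich libraries, 1 of each treatment and 2 controls, the median log2 difference of the 10 genes from Control was -0.78 in MTX, -1.83 in HMS-I1, -0.98 in AA and -1.65 in TSA. Among the 9 histone-poor libraries, 2 of each treatment and 1 control, it was 0.61 in MTX, 0.59 in HMS-I1, 1.62 in AA and 0.16 in TSA. In the histone-rich set 9, 9, 9 and 10 of the 10 genes were below Control in MTX, HMS-I1, AA and TSA, and in the histone-poor set 9, 8, 10 and 6 were above it. The set holding Control 1 thus gave medians below 0 and the set holding Control 3 medians above 0 in each treatment. The shares of all genes below or above Control within each set were not computed, so these counts have no background beside them. The 10 genes share the same few libraries and are not separate observations.

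Among the other 17886 genes tested, those most like the adipocyte genes were picked by Pearson's r with their mean standardised level over the 15 libraries. Among them were Chd7 (0.91), Hp (0.89), B3galt2 (0.86), Cyp2e1 (0.85), Insr (0.82), an unnamed gene with the identifier ENSMUSG00000118667 (0.82), Col5a2 (0.81), Retnla (0.80) and Npr3 (0.79). Over all genes the median r was 0.015, with 5% of genes below -0.45 and 5% above 0.44. Hp, for haptoglobin, a plasma protein that white fat also makes, had 93.00, 80.1 and 39.6 normalised counts in the MTX libraries, 22.8, 28.6 and 95.6 in HMS-I1, 142, 207 and 190.1 in AA, 6.91, 48.1 and 24.7 in TSA, and 639, 47.2 and 5.44 in Control. Cyp2e1, a cytochrome P450 of liver and fat, was listed at 44.6, 240.3 and 0.688 normalised counts in the MTX libraries, 0, 33.1 and 112 in HMS-I1, 50.3, 108 and 121 in AA, 0, 5.41 and 2.44 in TSA, and 354, 32.2 and 0.607 in Control. Both were highest in Control 1, and in both HMS-I1 1, TSA 1 and Control 3 were the 3 lowest. Since both were picked for this likeness, that follows in part from the choice. Without Control 1, r for the genes named above ran from 0.62 (Npr3) to 0.86 (Cyp2e1). Car3, a carbonic anhydrase abundant in white fat, took place 12 (r = 0.77) and was listed at 179, 1042 and 28.4 normalised counts in the MTX libraries, 7.61, 297 and 237 in HMS-I1, 175, 751 and 821 in AA, 14.7, 78.3 and 44.8 in TSA, and 1769, 208 and 156 in Control. Cd36, a fatty acid transporter, took place 13 (r = 0.77), at 731 to 1994 normalised counts, highest in Control 1.

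**Figure D4:**
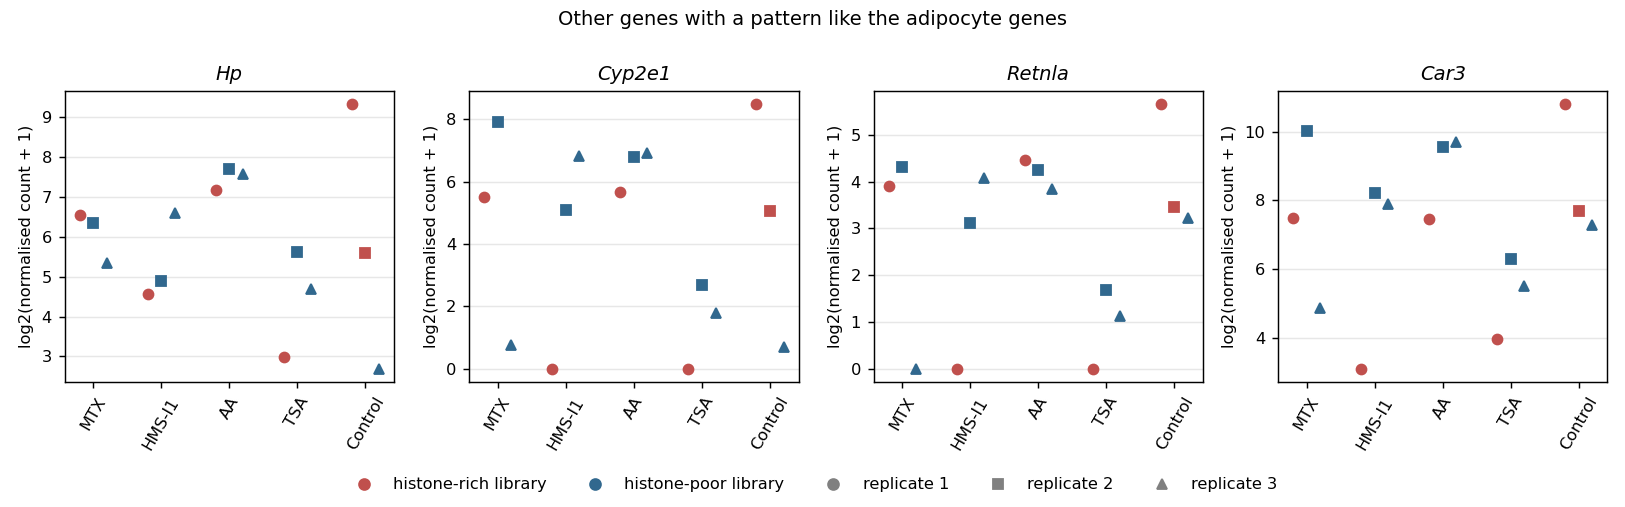
The 4 panels plot Hp, Cyp2e1, Retnla and Car3 as log2(normalised count + 1) by library for MTX, HMS-I1, AA, TSA and Control, with colour for the library set and shape for the replicate. In each panel Control 1 is the highest point. Hp, Cyp2e1 and Retnla were picked for a pattern like that of the adipocyte genes, so their peak follows in part from the choice. The axes differ between panels.

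Other lists of fat metabolism had median r values between -0.16 and 0.34 with the 10 genes. The list of fat storage and synthesis (14 genes, led by Lpin1, Me1 and Dgat2) had a median r of 0.065, and fat release (5 of 6 genes tested, led by Lipe, Abhd5 and Pnpla2) had -0.16. Fat and glucose uptake (6 genes, led by Aqp7, Cd36 and Slc27a1) had 0.34. Regulators of fat cell formation (9 genes, led by Rxra, Zfp423 and Srebf1) had -0.0100, and other secreted or surface proteins of fat (7 of 8 genes tested, led by Agt, Car3 and Angptl4) had 0.15. Limma called 0 genes of these lists in any comparison. At an unadjusted p under 0.05 in TSA there were 2 genes each for storage and for uptake and 1 of the secreted proteins, beside 1027 of all 17896 genes. The secreted one was Car3 at -3.33 (SE 1.49, adjusted p = 0.871 in limma), which was also below all 3 controls in all 3 TSA libraries, as were 2.18% of all genes. In HMS-I1 there was 1 such gene, Acvr1c at -1.63 (limma adjusted p = 1.00), beside 73 of all genes, and it was named after its values were seen. Lipe, the hormone-sensitive lipase, had 6468 to 11470 normalised counts and was highest in Control 3, the library with the lowest mean log2 level of the 10 genes.

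Of the 14 storage genes, the counts above and below 0 were 3 and 11 in MTX, 5 and 9 in HMS-I1, 7 and 7 in AA, and 6 and 8 in TSA. The 5 release genes stood at 2 and 3 in MTX, 5 and 0 in HMS-I1, 1 and 4 in AA, and 3 and 2 in TSA. For the 6 uptake genes the counts were 2 and 4, 1 and 5, 3 and 3, and 2 and 4 in the same order. For the 9 regulators they were 1 and 8, 5 and 4, 6 and 3, and 5 and 4, and for the 7 secreted or surface proteins 3 and 4, 3 and 4, 4 and 3, and 3 and 4. All medians of these lists lay between -0.75 (secreted or surface proteins in HMS-I1) and 0.17 (the same list in AA).

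Over the 15 libraries, none of the summed levels of the other cell type lists was highest in Control 1. Among the 6 histone-rich libraries alone, Control 1 was highest for the genes of fibroblasts (263 ppm), macrophages (108 ppm) and smooth muscle (124 ppm). The fibroblast gene Dpt, named after its values were seen, was highest in Control 1 over all 15 libraries, at 146 normalised counts, with MTX 2 close at 142. The summed level of brown fat genes (led by Cidea, Dio2 and Prdm16) ran from 17.5 to 33.7 ppm and was 25.7 in Control 1, and the brown fat markers Ucp1 and Cox8b had means under 1. Epididymis genes (led by Rnase10, Crisp1 and Rnase9) ran from 3.17 to 7.71 ppm, with 1 of 7 tested, Lcn5 listed at 0 in every library, and Adam7 and Spint4 at means under 1. Skeletal muscle genes (Mylpf, Ckm and Tnnc2) ran from 1.41 to 3.45 ppm. Mesothelium genes (Lrrn4, Upk3b and Upk1b) ran from 3.75 in TSA 1 to 21.6 in AA 2 and were 6.72 in Control 1. Fibroblast genes of connective tissue (Dcn, Col1a1 and Cd34) ran from 91.1 to 413 ppm and ranked 9 in Control 1. Endothelial genes (Cdh5, Kdr and Pecam1) ran from 15.6 to 56.1 and ranked 10. Macrophage genes (Mrc1, Csf1r and C1qa) ran from 79.7 to 196 and ranked 8. Blood genes (Hbb-bs, Hba-a2 and Alas2) ran from 47.9 to 298 ppm, with the lowest value in Control 1. Leydig cell genes (Cyp17a1, Insl3 and Cyp11a1) ran from 535 to 1945 ppm and Sertoli cell genes (Cldn11, Inha and Rhox5) from 146 to 398. Smooth muscle genes (Acta2, Myh11 and Tagln) lay at 75.9 to 124 ppm in the histone-rich and 171 to 309 in the histone-poor libraries. Against Control, the germ cell genes stood at 0 above and 6 below 0 in MTX, 1 and 5 in HMS-I1, 1 and 5 in AA, and 0 and 6 in TSA, with a median log2 fold change of -0.87 in TSA. The 6 Leydig cell genes stood at 3 and 3, 5 and 1, 5 and 1, and 6 and 0 in the same order, and the 6 Sertoli cell genes at 3 and 3, 4 and 2, 6 and 0, and 6 and 0. In AA all 6 fibroblast, all 4 mesothelium, all 5 endothelial and all 5 smooth muscle genes were above 0, with medians of 0.48, 0.69, 0.58 and 0.36. In TSA those counts above 0 were 2, 1, 4 and 5. Blood genes were above 0 for 5 of 5 in MTX, HMS-I1 and TSA and 4 of 5 in AA. Limma called 0 genes of these lists, and 1 of them, Tnp2 in TSA, had an unadjusted p under 0.05 (log2 fold change -1.27, limma adjusted p = 0.848). The part of these cell types and of the library set in the differences of the adipocyte genes was not tested.

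**Figure D5:**
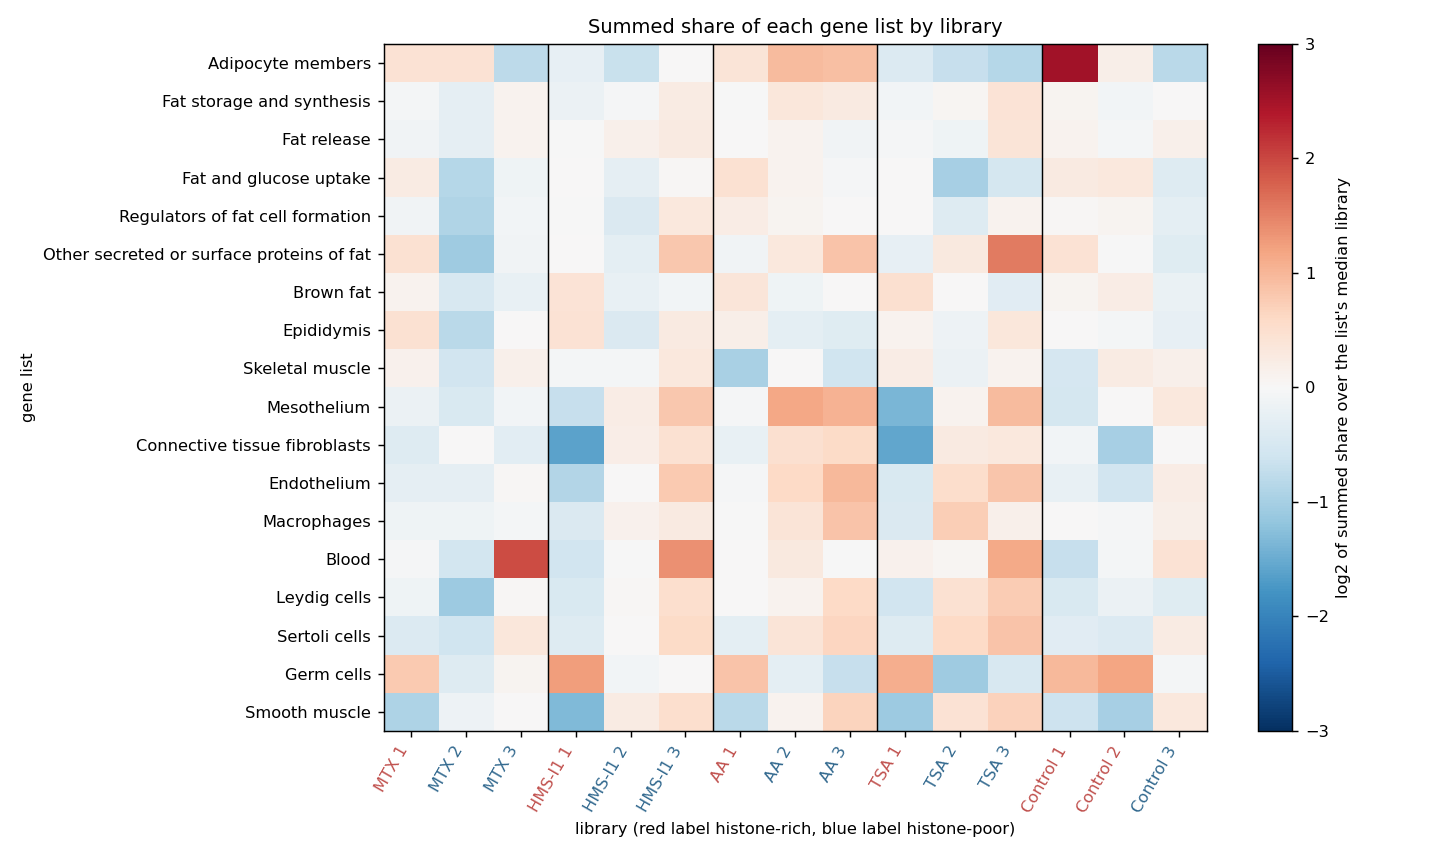
Colour gives the log2 ratio of each gene list's summed share in a library to that list's median library, with the lists as rows and the 15 libraries as columns ordered MTX, HMS-I1, AA, TSA and Control. The darkest cell in the row of adipocyte genes is Control 1 at 233 ppm, and the row of germ cell genes separates the histone-rich from the histone-poor libraries.

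To gauge how far the adipocyte level bore on the rest of the transcriptome, the mean log2 level of the 10 genes was added to the model as a covariate for the other 17886 genes. Limma called 0 genes in each comparison with it, as without it. The number of genes at an unadjusted p under 0.05 was 70 with it and 98 without it in MTX, 43 and 73 in HMS-I1, 154 and 143 in AA, and 454 and 1025 in TSA. The fold change turned sign for 6.37% of the genes in MTX, 11.3% in HMS-I1, 2.90% in AA and 16.4% in TSA. With the log2 level of Fabp4 in its place, chosen after seeing that Adipoq followed the library set, the numbers were 63, 42, 118 and 511. The covariate spans the groups as well as the libraries within them, so what it shares with treatment cannot be told apart.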

How the data were processed

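RNA was measured by sequencing of whole testes in 15 libraries, 3 in each of 5 groups taken from the titles. The authors deposited a signal table of normalised counts for 36118 genes. Per the submitters' processing notes, FastQC 0.11.9, Salmon 0.12.0, DESeq2 1.34.0 and the build GRCm39 were used. Whole reads could not be recovered from these values, so no count test was run, and the depths given are relative estimates with no counting interval. Symbols came from GENCODE M21 (GRCm38), which named 35825 identifiers and left 293 unnamed. No coordinates of the files are given, since the builds differ.

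Analyses used log2(normalised count + 1), so changes of low genes are understated. A mean of 10 or more was required, and the 17896 genes that met it entered limma 3.58.1 in R 4.3.3 with means of the 5 groups, 10 residual degrees of freedom and a trend of variance on mean. Tests were two-sided, with Benjamini-Hochberg adjustment over all genes per comparison and a threshold of 0.05. The procedure was tested on simulated data. Permutation tests of correlations were exact for 6 libraries and used 100000 resamples for 9, and were adjusted over 18 relations.

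The 10 genes and the 17 other lists, with 112 entries, were chosen with earlier results of these data known, so no list was tested as a set. Named are all 10 genes, the 3 genes with the highest mean of each other list (none passed the threshold) and, of the 10 genes most like them, 9, since 1 is not reported here. The library sets were formed from the histone gene level. Alternatives were a pseudocount of 10, no filter, equal library totals, the library set or the replicate number as a term, array weights, each library left out, and 2 covariates.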

Additional observations from a re-analysis of the deposited data

Results flagged for a closer look

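For 13 of 40 combinations of gene and treatment, every treated library lay on one side of every control among the histone-rich libraries and on the other side among the histone-poor ones. The difference itself was not tested, and each set holds 1 or 2 libraries a group. With so few libraries, such splits also arise among values in random order. The share of all genes with such a split was not computed, so the 13 of 40 has no background beside it. The values are the log2 difference from Control in the histone-poor minus that in the histone-rich libraries. For Cidec this was 4.92 in MTX, 10.1 in HMS-I1, 7.01 in AA and 6.06 in TSA. Cidec was listed at 0 in Control 3, the only histone-poor control, and in HMS-I1 1, the only histone-rich HMS-I1 library. For Plin4 it was 1.96 in MTX, 2.66 in HMS-I1 and 2.43 in TSA. Fabp4 gave 7.57 in HMS-I1 and 6.06 in AA. Cfd gave 11.02 in HMS-I1, with Control 3 listed at 0. Lpl gave 1.94 in HMS-I1, Plin1 gave 1.25 in AA and Adipoq gave 0.91 in MTX. All 13 share the same controls, with Control 1 and Control 2 in the histone-rich and Control 3 in the histone-poor set.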

How the results depend on the processing

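No gene passed in any comparison under the alternatives other than array weights and left-out libraries. Array weights called 6645 genes in AA, 4234 in TSA and 5640 by the F-test, but the weights did not converge (38.8 for AA 2), and the medians of the 10 genes were then -2.08 in MTX, -2.22 in HMS-I1, -0.57 in AA and -2.96 in TSA. With these weights 2 of the 10 genes passed in AA (Adipoq and Plin4) and 4 in TSA (Adipoq, Fabp4, Cfd and Retn). These counts stand beside 6645 in AA and 4234 in TSA of all 17896 genes, and are not read as a result about the 10. Leaving out 1 library gave 0 to 1 genes in MTX, HMS-I1 and AA, 0 to 992 in TSA and 0 to 246 by the F-test. The 992 and the 246 arose without TSA 1, the 1 in each comparison and in the F-test without Control 1 (Rdh16f1), and 1 by the F-test without HMS-I1 3 (Gm21704). The median log2 fold change of the 10 genes ran from -1.60 to 0.74 in MTX, -2.03 to 0.16 in HMS-I1 and -0.87 to 1.34 in AA with 1 library left out, and was -0.10 in AA with a pseudocount of 10.

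With 1 library left out, single genes that turned sign had log2 fold changes in MTX of -3.62 to 1.57 for Cfd, -2.31 to 1.42 for Cidec, -2.19 to 0.86 for Fabp4, -1.37 to 0.94 for Lep, -0.95 to 0.61 for Lpl, -1.995 to 0.12 for Plin4 and -1.84 to 0.66 for Retn. In HMS-I1 they ran -3.48 to 1.62 for Cfd, -3.47 to 0.26 for Cidec, -2.07 to 0.24 for Lep, -1.52 to 0.035 for Lpl, -2.04 to 0.078 for Plin4 and -2.04 to 0.47 for Retn. In AA they ran -1.001 to 4.10 for Cfd, -1.19 to 2.54 for Cidec, -0.70 to 2.34 for Fabp4, -0.77 to 1.54 for Lep, -0.10 to 1.46 for Lpl, -0.50 to 0.10 for Plin1, -1.15 to 0.96 for Plin4 and -1.29 to 1.22 for Retn. In TSA they ran -2.96 to 0.77 for Cidec, -2.14 to 0.17 for Lep, -0.89 to 0.058 for Plin1, -1.95 to 0.17 for Plin4 and -0.26 to 0.089 for Pparg.

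Other settings turned 17 values, and the cause was not tested. With the library set as a term, Adipoq and Retn in MTX came to 0.056 and 0.039, Plin4 and Retn in AA to 0.33 and 0.59, and Pparg in TSA to 0.026. With set and replicate block, Lep, Retn and Lpl in AA came to -0.72, 0.17 and -0.49. Equal library totals gave 0.0018 for Plin4 and 0.080 for Retn in AA and 0.023 for Pparg in TSA, and moved the median of all genes in TSA to 0.11. Lep and Cidec in AA came to -0.31 and -0.038 with a pseudocount of 10. Array weights gave -0.26 for Fabp4, -0.59 for Cfd, -1.22 for Lep and -0.55 for Cidec in AA. Deviations from the group mean correlated at over 0.1 in 26 of 30 same-numbered pairs (median 0.46, -0.58 to 0.76). The median in pairs of other numbers was -0.33. Of 15 libraries, 11 correlated best with a library of their own number, a hint from the data and not from the design. Since 4 of the 30 pairs did not exceed 0.1 and the labels tie the numbers to no animal or batch, the numbers were not taken to pair the samples. Replicate 1 of every group was histone-rich and replicate 3 of every group histone-poor. The replicate block left the fold changes as they were and called 0 genes, with 322, 415, 761 and 2748 at an unadjusted p under 0.05 in MTX, HMS-I1, AA and TSA. Of the 4 values of Cfd listed at 0, 3 lay in the deeper histone-poor libraries (MTX 3, TSA 3 and Control 3), as did 1 of the 2 of Cidec (Control 3). The histone-poor set holds 9 of the 15 libraries, and the part of depth in these zeros was not tested.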

Other observations

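Chd7, a chromatin remodeller, had the pattern most like the 10 genes. It was listed at 584, 412 and 233 normalised counts in the MTX libraries, 295, 351 and 315 in HMS-I1, 427, 478 and 402 in AA, 237, 223 and 290.1 in TSA, and 864, 275 and 322 in Control. Retnla, a resistin-like protein of fat tissue and of macrophages, was listed at 0 in MTX 3, HMS-I1 1 and TSA 1 and at 49.3 in Control 1. The summed level of macrophage genes in those 4 libraries was 104, 79.7, 80.6 and 108 ppm.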
